A study of Mus musculus with 3 samples.

Results

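MHC class II-high dendritic cells were a minority of the sorted lung cells, 111 of the 10457 cell barcodes that passed the filters and of 16627 deposited. They were chosen by measured values: a barcode was a member when it met all parts of one rule on its UMIs, the unique molecular identifiers that count RNA molecules. It had 500 or more detected genes and at most 15% mitochondrial UMIs. H2-Aa, H2-Ab1 and H2-Eb1, the chains of the class II molecules, made up at least 1% of its UMIs. It held at least 1 UMI of Plbd1, Ccl17, Ccr7 or Flt3, at most 3 UMIs of C1qa plus C1qb, and none of Cd79a. Chil3 and Sftpc were each under 1% of its UMIs. The rule used these 12 genes, so their values below describe the members and support nothing.

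The cells came from lungs of mice with the genotype Scgb1a1-CreER;Sftpc-DreER;R26-TLR, 4 weeks after bleomycin, a drug that injures the alveolar epithelium. In these mice Scgb1a1 drives the recombinase CreER and Sftpc drives DreER, so that the dual reporter at Rosa26 marks cells by the promoters they used. Digested lung was sorted by fluorescence into tdTomato-positive cells (Club-Tracer), ZsGreen-positive cells (AT2-Tracer) and cells positive for both (BASC-Tracer). Each lineage is 1 library of 10x 5′ gene expression, so there are no replicates, no uninjured mice and no test between groups, and the labels do not say how many mice went into each library. Every interval printed below is a 95% interval that covers counting error only. UMIs of the same gene from 1 cell are not independent, so those intervals are too narrow for the spread between cells.

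The labels call the sorted material lung epithelial cells, and the members went against that label by the dendritic cell genes outside the rule, named below. Summed over the 70 AT2-Tracer members, the 8 surfactant and other AT2 markers reached 1396 CPM (UMIs of the named genes for a total of 1000000 UMIs in the cells), against 146633 CPM in AT2 cells of the same library. The rule holds the surfactant gene Sftpc low in members, and the AT2 cells were chosen by high Sftpc. Part of this gap is therefore set by the selection, and the gap is given as a description only. The 3 class II chains and Cd74 were found in all 111 members, Cst3 in 111, Plbd1 in 103, Ccl17 in 84, Flt3 in 71 and Ccr7 in 42. Of dendritic cell genes outside the rule, Itgax, the integrin CD11c, was found in 75 members, Zbtb46, a transcription factor of conventional dendritic cells, in 38, and Spi1 in 100. Among markers of other blood cells, Cd79b, Cd3e, Cd3d, Cd3g, Trac, Nkg7, S100a9, Marco and Ear1 had no UMI in any member. Other genes of those lists were found: Il7r, an interleukin receptor of lymphoid cells, stood at 121 CPM in cluster 3 and 186 CPM in cluster 5 of the clusters described below. Ighm was at 98.2 CPM in cluster 3. Of the alveolar macrophage markers Mrc1, Ear2 and Chil3 were at 143, 83.3 and 83.3 CPM in cluster 0, and Plet1 was at 440 CPM over all members. All 6 mast cell and basophil markers were at 0 as well. The plasmacytoid dendritic cell markers Klk1 and Cox6a2 were at 0, and Siglech was found in 19 members.

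Dendritic cells take up antigen, cut it in endosomes and load the peptides on class II molecules for display to CD4 T cells. Conventional dendritic cells come in type 1 (cDC1), which depend on Irf8 and Batf3 and are known for passing antigen to CD8 T cells, and type 2 (cDC2), which rely more on Irf4 and are known for priming CD4 T cells. Either type can mature: the cell then makes more co-stimulatory molecules and gains Ccr7, the receptor that guides it along lymphatics to the lymph node. In the lung, cDC1 lie close to the airway and alveolar epithelium.

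Class II genes are switched on together by the coactivator CIITA, which docks on factors bound at a short promoter region that holds an X box and a Y box. The promoters below are shown because all of these genes were read together in the members, and because they show how that region looks in several of them. Each run is the 150 bases before the RefSeq gene start in build GRCm38.p6, 5′ to 3′ on the gene's own strand. Capitals mark matches on either strand to TGATTGG, the core letters of a Y box with its inverted CCAAT, and to the longer X box letters, in which any base may stand at the fourth position.
H2-Aa, chr17:34287824-34287973, minus strand: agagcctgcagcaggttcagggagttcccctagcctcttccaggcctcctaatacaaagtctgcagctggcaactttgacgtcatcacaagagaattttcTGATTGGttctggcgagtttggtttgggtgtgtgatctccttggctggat
H2-Eb1, chr17:34305717-34305866, plus strand: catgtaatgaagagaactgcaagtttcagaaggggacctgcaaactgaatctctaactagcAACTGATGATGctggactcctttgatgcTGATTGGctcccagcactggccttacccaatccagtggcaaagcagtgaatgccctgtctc
H2-DMb1, chr17:34153041-34153190, plus strand: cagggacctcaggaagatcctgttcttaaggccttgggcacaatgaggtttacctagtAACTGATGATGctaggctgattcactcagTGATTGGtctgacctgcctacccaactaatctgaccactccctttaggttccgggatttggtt
H2-DMb2, chr17:34145099-34145248, plus strand: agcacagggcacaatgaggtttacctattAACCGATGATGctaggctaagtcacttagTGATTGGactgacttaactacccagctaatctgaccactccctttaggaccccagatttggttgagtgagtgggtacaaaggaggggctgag
Of the 10 class II pathway genes looked up, 7 were taken from the RefSeq table. The Y box letters were found before H2-Aa, H2-Eb1, H2-DMb1, H2-DMb2, H2-Oa and H2-Ob, and the X box letters before H2-Eb1, H2-DMb1 and H2-DMb2. Neither was found in the windows before H2-DMa. Among 32475 distinct promoter windows of this length, 5.69% held the Y box letters, 0.0339% the X box letters and 0.0154% both. A match is a description of the letters and not a bound site.

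The members were spread over all 3 libraries. The Club-Tracer library held 33 of 3196 cells (1.03%, interval 0.712 to 1.45), the BASC-Tracer library 8 of 1402 (0.571%, 0.247 to 1.12) and the AT2-Tracer library 70 of 5859 (1.19%, 0.933 to 1.51). The intervals of the 3 libraries overlap. Median depth was 13447, 8512 and 12042 UMIs per member in that order. The class II share ran from 1.01% to 8.68% of UMIs, with medians of 4.34%, 4.63% and 4.25%. The 3 members closest to the threshold stood at 1.01%, 1.09% and 1.30%, and the 3 barcodes closest below it, which met every other part of the rule, at 0.779%, 0.761% and 0.711%. The class II threshold alone kept out 457 barcodes and the C1q limit alone 99. Between libraries 73, 122 and 94 barcode sequences were shared (Club with BASC, Club with AT2, BASC with AT2), and no barcode was a member in more than 1 library. A doublet caller set to the expected share marked 4 of the 111 members.

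The class II genes were high and close to even in every library. H2-Aa stood at 22424 CPM in Club-Tracer, 25283 in BASC-Tracer and 22238 in AT2-Tracer members. For H2-Ab1 the values were 13893, 13988 and 13903 CPM, and for H2-Eb1 6932, 7370 and 6671 CPM. Cd74, the invariant chain that holds the class II groove until loading, reached 42612, 42443 and 38666 CPM. The chaperones that exchange peptides in the groove followed: H2-DMa at 1003 CPM over all members, H2-DMb1 at 576 and H2-DMb2 at 571. H2-DMb1 and H2-DMb2 are close copies of each other, so their split is uncertain. H2-Oa, which restrains that exchange, stood at 212 CPM and H2-Ob at 96.5 CPM, while Ciita was found in 56 members at 96.5 CPM.

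Leiden clustering of the members on 1000 variable genes, without reporter and epithelial marker genes, gave 7 clusters. A cluster took a name only where at least 75% of its cells passed the gate of that type, or 3 or more markers of that type led it, and no other type had more markers among its 10 leading genes. The gates need UMIs of 2 cDC1 genes, 2 cDC2 genes or 3 maturation genes. Clusters 4 (15 cells), 2 (20 cells) and 1 (19 cells) were cDC1-like, with 14, 17 and 19 cells past the cDC1 gate. Cluster 3 (17 cells) was cDC2-like, with 16 cells past the cDC2 gate. Cluster 5 (12 cells) was mature DC-like, with Ccr7, Ccl22, Samsn1 and Fscn1 among its 10 leading genes. Those were headed by Ccl5 and Fabp5 and also held Mmp12, a gene of the C1q macrophage list. Cluster 0 (21 cells) stayed unnamed although 20 of its cells passed the cDC2 gate. The macrophage genes Apoe and Mrc1 were among its 10 leading genes, and no cDC2 marker was. Cluster 6 (7 cells) was led by epithelial genes and stayed unnamed. Since the clusters were made from the same genes, all gene values by cluster are descriptions.

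The division into a cDC1 side and a cDC2 side held better than the 7 clusters. At resolution 0.5 only 2 clusters were left, and 51 cells, all of clusters 0, 3 and 5 and 1 of cluster 2, fell in one of them. Clusters with more cDC1 than cDC2 list UMIs held 55.0% of members, the 7 cells of cluster 6 included, and from 48.8% to 64.1% under the 10 other settings. The number of clusters went from 2 to 8 over those settings. With another random seed cluster 5 joined cluster 0, which also happened at resolution 0.5 and with 20 neighbours. The 7 clusters are therefore given as a finer description within 2 sides.

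**Figure D1:**
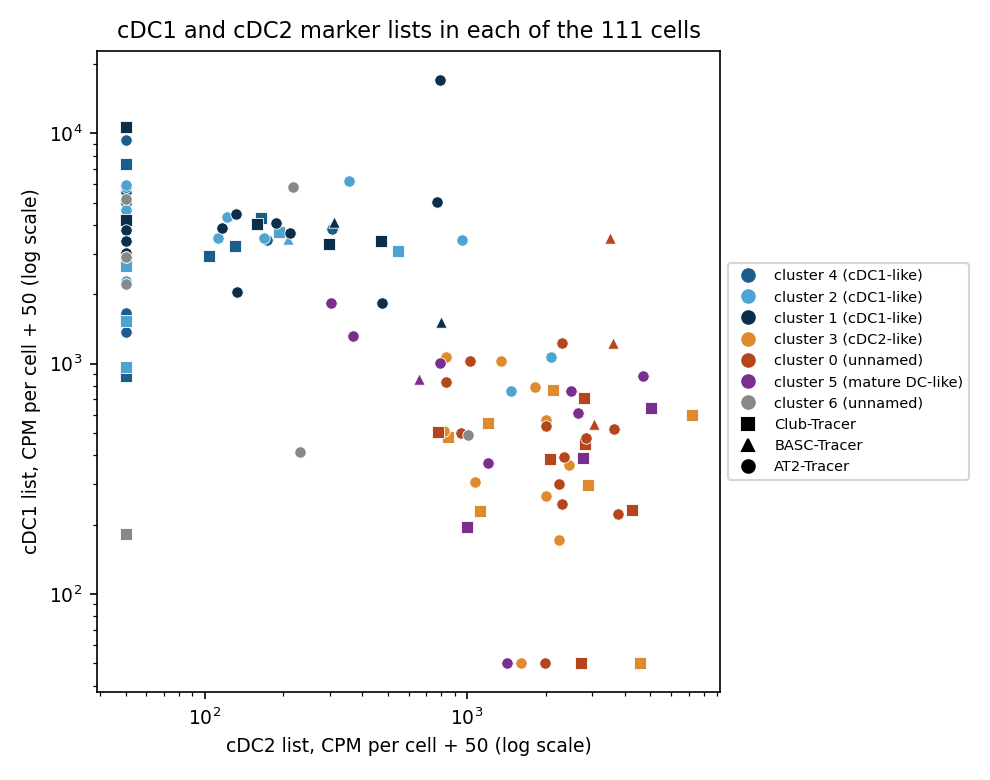
Each point is 1 of the 111 dendritic cells, with the summed CPM of the 10 cDC2 markers (x axis) and of the 12 cDC1 markers (y axis), both plus 50 on log scales, coloured by cluster and shaped by library. The cells of clusters 4, 2 and 1 lie mostly at the upper left and those of clusters 3, 0 and 5 at the lower right, and all 3 libraries appear on both sides.

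Xcr1, the receptor by which cDC1 sense XCL1, and Clec9a, their receptor for dead cells, parted the 2 sides without overlap of clusters. Xcr1 stood at 291 CPM (212 to 390) in cluster 4, 255 (201 to 319) in cluster 2 and 250 (195 to 317) in cluster 1. Neither gene had a UMI in the 50 cells of clusters 0, 3 and 5, where 3 counts would be 13.9, 17.3 and 29.4 CPM for Xcr1. Xcr1 was found in 3 of 1808 AT2 cells of the AT2-Tracer library at a median of 15567 UMIs, against 33 of 70 members there at 12042 UMIs. Mgl2, a lectin of cDC2 and macrophages, ran the other way: 769 CPM (643 to 911) in cluster 3, 833 (716 to 964) in cluster 0 and 765 (604 to 954) in cluster 5, against 6.47, 53.7 and 39.9 CPM in clusters 4, 2 and 1. Cd209a, a lectin that marks part of the cDC2, stood at 162, 342 and 167 CPM in clusters 3, 0 and 5 and had 1 UMI in clusters 4, 2 and 1 together. By these 4 genes, 42 members held only Xcr1 or Clec9a, 45 only Cd209a or Mgl2, 9 both kinds and 15 neither.

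The gates, which use no gene of the rule, gave a like picture with more overlap. Past the cDC1 gate were 68 members (61.3%, interval 51.5 to 70.4), past the cDC2 gate 51 (45.9%, 36.4 to 55.7) and past both 18. By library the cDC1 gate took 19 of 33, 5 of 8 and 44 of 70 members (Club-Tracer, BASC-Tracer, AT2-Tracer) and the cDC2 gate 18, 4 and 29. Thinned to 1500 UMIs per cell, which left out 5 shallower members, the shares were 29.2% and 25.5%. A gate counts genes with a UMI, so its share moves with depth.

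Summed over the libraries, the cDC1-like clusters stood above clusters 3, 0 and 5 in a transcription factor, lysosomal genes and a peptide transporter. Irf8, the factor that cDC1 need, stood at 873, 617 and 548 CPM in clusters 4, 2 and 1 and at 121, 97.2 and 382 CPM in clusters 3, 0 and 5. In AT2-Tracer cells alone Irf8 was lower in cluster 1 than in cluster 5, at 402 against 514 CPM. It was at 640 against 39.8 CPM in Club-Tracer and 843 against 202 CPM in BASC-Tracer cells. Naaa, a lysosomal amidase, reached 958, 741 and 501 CPM against 46.2, 125 and 29.4 CPM. Wdfy4, which cDC1 need to cross-present antigen, was at 498, 550 and 602 CPM against 69.3, 55.5 and 68.6 CPM. Psap, the precursor of lysosomal saposins, was at 3384, 3715 and 3867 CPM against 468, 1120 and 578 CPM. Cst3, the cysteine protease inhibitor cystatin C, was found in every member but varied between sides, from 25079 to 30597 CPM in clusters 4, 2 and 1 and from 12042 to 18643 CPM in clusters 3, 0 and 5. Tap1, which pumps peptides for class I, stood at 168, 87.2 and 200 CPM against 57.8, 32.4 and 19.6 CPM. On the other side Ctss, the protease that trims the invariant chain, was at 1722, 1832 and 1235 CPM in clusters 3, 0 and 5 and from 608 to 722 CPM in clusters 4, 2 and 1. Zeb2, a factor of cDC2, was at 69.3, 217 and 147 CPM in clusters 3, 0 and 5 and at 0, 6.71 and 10.9 CPM in clusters 4, 2 and 1.

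**Figure D2:**
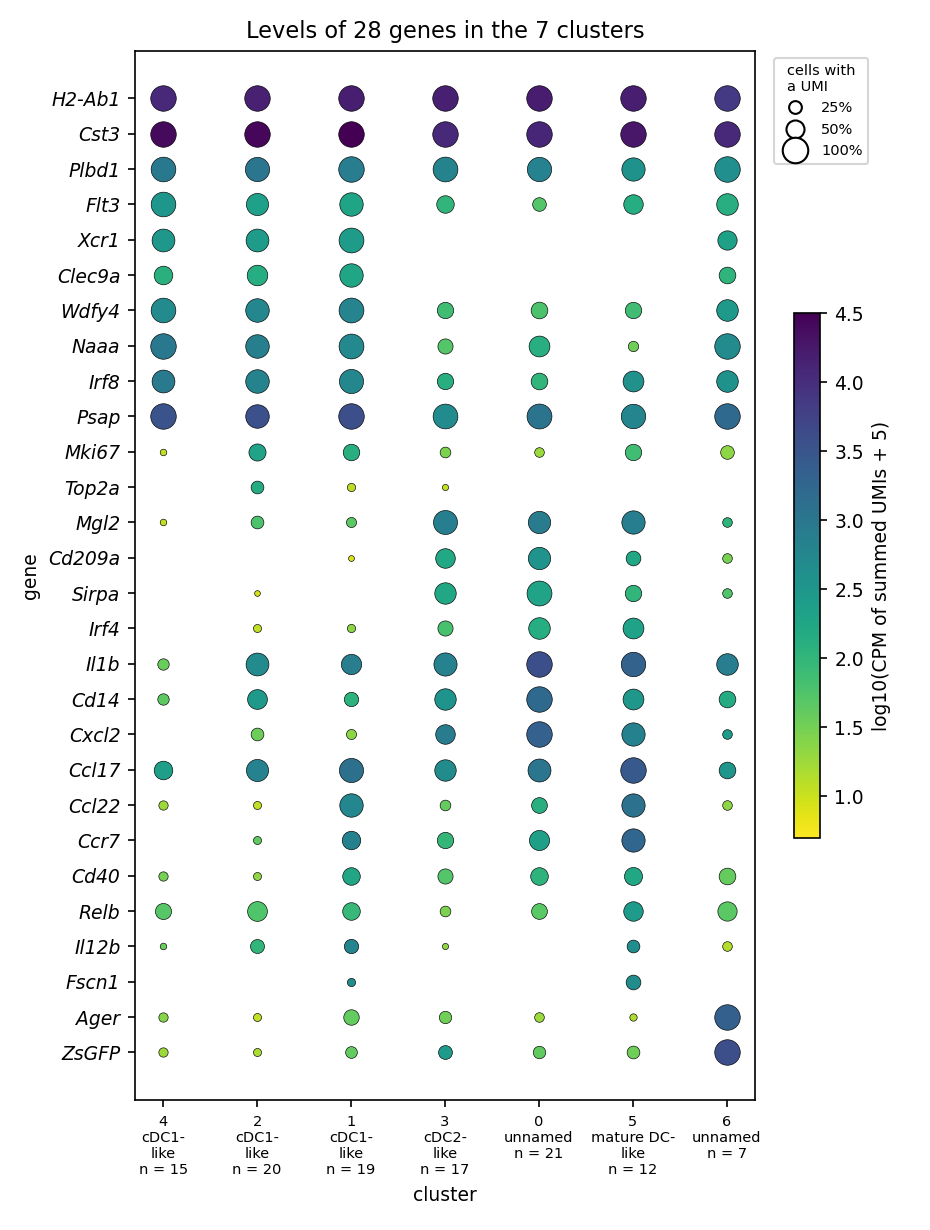
Dot plot of 28 genes (rows) in the 7 clusters (columns), with dot size for the percent of cells with a UMI and colour for log10 of the CPM of summed UMIs plus 5. Xcr1 and Clec9a have no dot in clusters 3, 0 and 5, Cxcl2 and Cd14 are darkest in cluster 0, Ccr7 and Ccl22 in cluster 5, and Ager and ZsGFP in cluster 6.

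Within the cDC1 side, cluster 1 was higher in maturation genes than clusters 4 and 2. Against all other members, 6 of 7 maturation genes were 2-fold lower in cluster 4 and 7 of 8 in cluster 2, while 4 of 10 were higher and 1 lower in cluster 1. Over all genes 9.56% were lower in cluster 4 and 8.84% in cluster 2, and 4.47% were higher and 8.94% lower in cluster 1. Klf2, a transcription factor of resting leukocytes, stood at 239 CPM (169 to 330) in cluster 4 and 105 (70.5 to 151) in cluster 1. Ccr7 had no UMI in the 15 cells of cluster 4 and stood at 693 CPM (598 to 798) in cluster 1, where 10 of 19 cells held it and the median cell was at 81.0 CPM. Of its 191 Ccr7 UMIs there 74 came from 1 BASC-Tracer and 67 from 1 AT2-Tracer cell. By library, Ccr7 in cluster 1 was at 496 CPM in 5 Club-Tracer cells, 1485 in 2 BASC-Tracer cells and 529 in 12 AT2-Tracer cells. Ccl22, a chemokine that draws T cells with CCR4, was at 559 CPM in 16 of 19 cells of cluster 1 and 12.9 CPM in 2 of 15 cells of cluster 4. Id2, Rel and Nfkbia followed, at 1012, 722 and 1919 CPM in cluster 1 and 375, 194 and 492 CPM in cluster 4. Between these clusters 273 of 2875 genes (9.5%) were at least 2-fold higher and 322 (11.2%) at least 2-fold lower in cluster 1, on the scale log2((CPM + 5)/(CPM + 5)). The median gene was lower by 0.13 there, and after division by the median ratio the counts were 329 and 242. Of the NF-kB pathway list 7 of 10 genes were 2-fold higher in cluster 1 and none lower, with a median log2 ratio of 1.27. Of 9 co-stimulation and checkpoint genes at 50 CPM or more 7 were higher and none lower, among them Cd40 (178 against 25.9 CPM), Icosl (131 against 12.9) and Cd80 (112 against 19.4). These are the receptors and ligands by which a dendritic cell gives T cells a second signal. The BASC-Tracer cell with 74 Ccr7 UMIs also held 19 Cd40 UMIs. Without its library Cd40 in cluster 1 was at 133 CPM, still above cluster 4. No class II or class I pathway gene differed 2-fold between the 2 clusters.

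Il12b, the p40 chain of interleukin 12 and 23, was found in 18 members and was led by 1 cell. In cluster 1 it stood at 588 CPM in 6 cells, of which 61.1% of the UMIs came from 1 BASC-Tracer cell. Without the BASC-Tracer library Il12b was at 279 CPM in cluster 1. Il12a, the other chain of interleukin 12, had no UMI in any member, and neither had Il10 or Il27. Fscn1, the actin bundler of mature dendritic cells, was found in 6 members. That same BASC-Tracer cell, of 30682 UMIs, held 116 Fscn1, 99 Il12b, 74 Ccr7 and 43 Ccl22 UMIs, no Xcr1 and 1 Clec9a UMI. Without its library Fscn1 in cluster 1 was at 8.86 in place of 428 CPM, so the value of cluster 1 is that of 1 cell.

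Cluster 2 held most of the proliferation gene UMIs of the cDC1 side, in few cells. Of its 20 cells 6 held UMIs of 3 or more of 12 proliferation genes, against 9 of all 111 members. All 9 proliferation genes at 50 CPM or more were 2-fold higher than in the other members, where 102 of 2885 genes (3.54%) were higher and 255 (8.84%) lower. Top2a, which untangles DNA in mitosis, stood at 148 CPM (107 to 198) in 5 cells of cluster 2, and 56.8% of its UMIs came from 1 of them. Mki67 was at 191 CPM in 9 cells, and also at 120 CPM in 8 cells of cluster 1. By library Top2a in cluster 2 was at 322 CPM in Club-Tracer, 0 in BASC-Tracer and 107 in AT2-Tracer cells. Outside the cDC1-like clusters, 1 cell of cluster 3 and 1 of cluster 6 held 3 or more proliferation genes. Cluster 2 was the least stable: across the 10 other settings its best match held from 22.2% to 100% of its cells.

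On the cDC2 side, cluster 0 differed from cluster 3 by inflammatory and innate receptor genes. Il1b, the cytokine interleukin 1 beta, was found in all 21 cells of cluster 0 at 3924 CPM (3664 to 4197) and in 14 of 17 cells of cluster 3 at 665 CPM (549 to 798). Cluster 0 held it at 2567 CPM in 6 Club-Tracer cells, 5341 in 3 BASC-Tracer cells and 4620 in 12 AT2-Tracer cells. In cluster 3 the values were 175 CPM in 7 Club-Tracer cells and 1035 in 10 AT2-Tracer cells, below cluster 0 in both libraries. Cd14, the co-receptor for lipopolysaccharide, was at 1643 CPM in all 21 cells against 335 CPM in 12 of 17 cells. By library it was at 1219, 534 and 2022 CPM in cluster 0 and at 430 and 264 CPM in the Club-Tracer and AT2-Tracer cells of cluster 3. Cxcl2, a neutrophil-drawing chemokine, was at 2147 CPM in cluster 0 and 832 CPM in cluster 3, but library split its order: 963 CPM against 1638 in Club-Tracer cells, and 3069 against 223 in AT2-Tracer cells. Of the Cxcl2 UMIs in cluster 3 75% came from 1 cell, and of its Il1b UMIs 53.0%.

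Against all other members, 261 of 2974 genes (8.78%) were at least 2-fold higher and 224 (7.53%) lower in cluster 0. All 8 cDC2 genes at 50 CPM or more were among the higher and all 9 cDC1 genes among the lower. Between the 2 clusters 296 of 3074 genes (9.63%) were at least 2-fold higher and 269 (8.75%) at least 2-fold lower in cluster 0. All 7 pattern receptor and lectin genes at 50 CPM or more were higher, with a median log2 ratio of 1.49, among them Tlr2 (361 against 150 CPM) and Clec4n, the fungal receptor dectin 2 (676 against 237 CPM). Of 9 chemokine ligands 7 were higher and none lower. Of the cDC2 list 4 of 8 were higher and none lower, with Cd209a at 342 against 162 CPM, Irf4 at 134 against 57.8 CPM and Mgl2 at 833 against 769 CPM. Ptgs2, which makes prostaglandins, was at 407 against 40.4 CPM. Lower in cluster 0 were Hpgds, a prostaglandin D synthase (55.5 against 173 CPM), and Tubb5 (92.5 against 260 CPM). Cluster 3 itself was led by Hpgds, Ltc4s, Mfge8, Cd72, Cd300a and Cfp. Ltc4s, the leukotriene C4 synthase, was at 225 CPM in 8 cells, and Mfge8, which bridges dying cells to phagocytes, at 497 CPM in 15 cells.

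Macrophage and monocyte markers stood higher in cluster 0 than elsewhere, and their part in these values was not tested. The 9 C1q macrophage markers summed to 1559 CPM in cluster 0, from 38.8 to 618 CPM in the other clusters, and 51598 CPM in C1q macrophages of the AT2-Tracer library. Of that sum Apoe made up 935 CPM, and 92.1% of the Apoe UMIs came from 1 AT2-Tracer cell. Most of the sum in cluster 0 was thus that of 1 cell. No Club-Tracer or BASC-Tracer cell of cluster 0 held Apoe. Mmp12, another of the 9 markers, was among the leading genes of cluster 5. Without the BASC-Tracer library it stood at 567 CPM there, against 81.0 CPM in the other members. C1qa, C1qb and C1qc were at 13.9, 27.8 and 23.1 CPM in cluster 0, and the rule holds them low. The 9 monocyte markers summed to 2073 CPM, of which Cd14 was 1643 CPM. Ly6c2 and Plac8, defining monocyte genes, were at 0 in cluster 0.

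Summed over its cells, cluster 5 was highest in Ccr7, Ccl22 and Ccl17, though only 4 of its 12 cells passed the maturation gate. Ccr7 was at 1823 CPM (1571 to 2105) in 10 of 12 cells, Ccl22 at 1186 CPM (984 to 1417) in 10 cells and Ccl17 at 2833 CPM (2515 to 3179) in all 12. By library Ccr7 stood at 1154 CPM in 3 Club-Tracer cells, 3025 in 1 BASC-Tracer cell and 1974 in 8 AT2-Tracer cells. Ccl17 stood at 1552, 6251 and 3044 CPM in the same order, and Ccl22 at 597, 3226 and 1251 CPM. In each library these 3 genes were higher in cluster 5 than in clusters 0 and 3, of which cluster 3 has no BASC-Tracer cell. Of the maturation list 11 of 12 genes at 50 CPM or more were 2-fold higher than in the other members, where 338 of 2962 genes (11.4%) were higher and 316 (10.7%) lower. The markers Ccr7, Ccl22, Samsn1 and Fscn1 were among its 10 leading genes, and the list gave the cluster its name. Ccr7 is a gene of the rule, and the other 3 markers meet the naming rule without it, but only by way of 1 cell. Of the Fscn1 UMIs 38 came from 1 AT2-Tracer cell, and 5, 2 and 2 from the others with it. Without that cell Fscn1 would fall under the 30 UMIs that a leading gene needs. Without the AT2-Tracer library, which leaves 4 cells, Ccr7 was at 1462 and Ccl22 at 1030 CPM, but Samsn1 was at 199 against 124 CPM and was not 2-fold higher. The name therefore rests on the AT2-Tracer cells. Relb, a subunit of the NF-kB arm active in maturation, was at 265 CPM in 7 cells, and Tmem123 at 519 CPM in 10 cells.

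Rel, another NF-kB subunit, was at 1274 CPM in cluster 5, and Tnfsf9, the ligand of 4-1BB, at 353 CPM. Ccl5, a chemokine for effector T cells, was at 745 CPM in 4 cells. Cells of cluster 5 kept cDC2 genes: 9 of 12 passed the cDC2 gate, 3 the cDC1 gate and 4 the maturation gate, and Irf4 was at 196 CPM in 8 cells. Fscn1 stood at 461 CPM in 4 cells, and 80.9% of its UMIs came from 1 AT2-Tracer cell. Without the AT2-Tracer library Fscn1 in cluster 5 was at 133 CPM, below the 228 CPM of the other members, so its place in the cluster depends on 1 library. Of a regulatory program of 11 genes, 3 of the 4 that reached 50 CPM stood 2-fold higher in cluster 5. Over all genes 11.4% were higher there. Il4i1, Socs2 and Cd200 of that program are also in the maturation list that gave the cluster its name. The count is therefore a description and no separate result. Aldh1a2 and Ido1, enzymes of retinoic acid and kynurenine synthesis, were found in 1 member each, and Itgb8 and Ido2 in none.

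**Figure D3:**
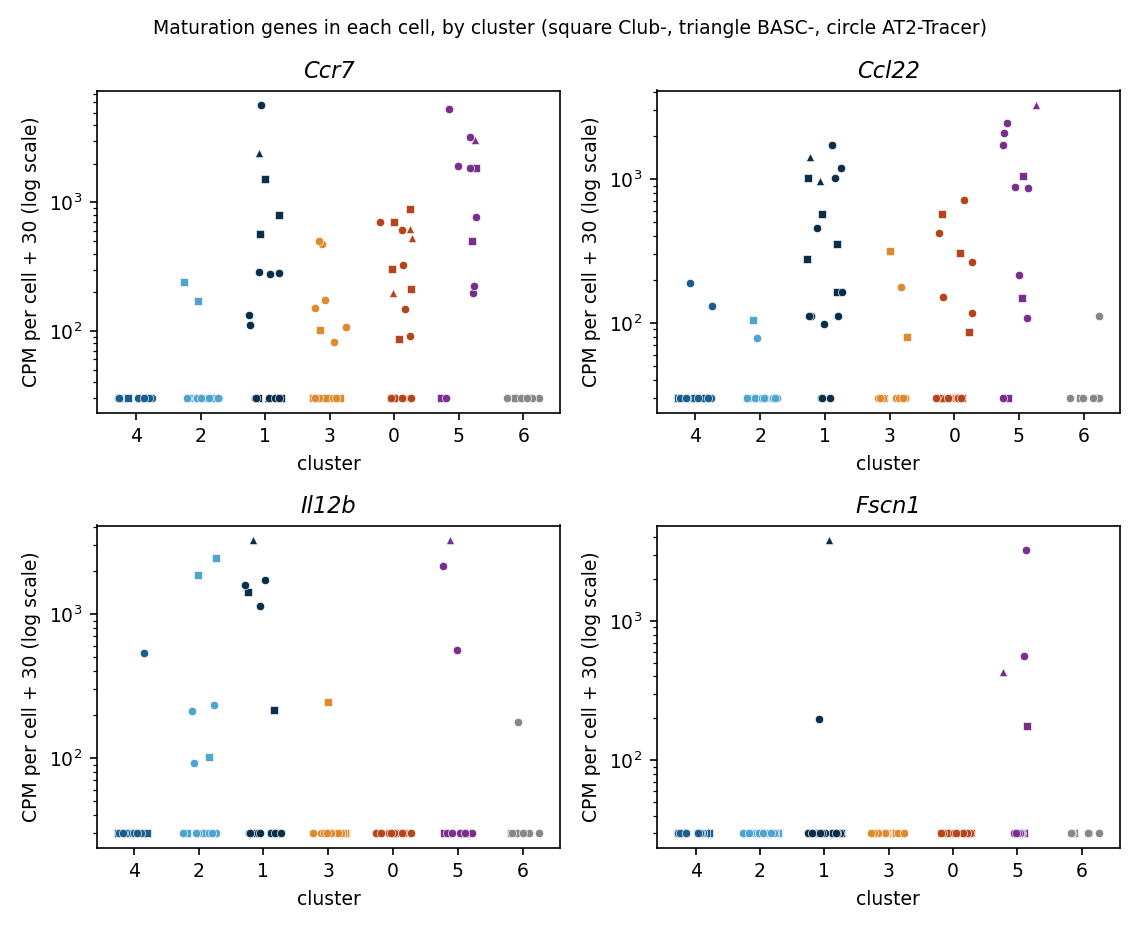
Ccr7, Ccl22, Il12b and Fscn1 in each cell, as CPM plus 30 on a log scale, by cluster and with library shown by the marker shape. Ccr7 and Ccl22 are each found in 10 of 12 cells of cluster 5 and reach into most other clusters, while Fscn1 is found in 6 cells, all in clusters 1 and 5.

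The maturation genes were also found outside cluster 5. As a description, since Ccr7 was used in the rule and single UMIs depend on depth, Ccr7 with Ccl22 was found in 28 members, Ccr7 alone in 14, Ccl22 alone in 14 and neither in 55. The maturation gate, which does not use Ccr7, took 13 members (11.7%, interval 6.39 to 19.2): 5 of cluster 1, 4 of cluster 5, 3 of cluster 6 and 1 of cluster 4. By library it took 3 of 33, 1 of 8 and 9 of 70. Cd83, which holds class II and CD86 at the surface, was found in 97 members at 614 CPM, and Cd86 in 91 at 335 CPM. Cd274, the checkpoint ligand PD-L1, was found in 19 members and was at 196 CPM in clusters 1 and 5 and from 0 to 50.9 CPM in the others. In cluster 1 59.3% and in cluster 5 65% of its UMIs came from 1 cell. Without the BASC-Tracer library Cd274 was at 97.4 CPM in cluster 1, and without the AT2-Tracer library it had no UMI in the 4 cells left of cluster 5.

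Cd74 and the class II chains were high in every cluster and lowest in cluster 6. Cd74 stood between 36463 and 47084 CPM in clusters 0 to 5 and at 24495 CPM (23609 to 25406) in cluster 6. H2-Aa stood between 20562 and 25795 CPM and at 13670 CPM (13010 to 14354) in cluster 6. The median class II share per cell went from 3.54% in cluster 4 to 5.19% in cluster 5, and was 2.74% in cluster 6. Of 13 class II pathway genes at 50 CPM or more, none was 2-fold higher in cluster 1, 2, 3 or 4 than in the other members, and 1, 1, 0 and 2 were lower. Cluster 0 had 2 of 13 higher, the proteases Ctss (1832 against 850 CPM) and Lgmn (176 against 46.4 CPM). Cluster 5 had 2 of 14 higher, H2-Oa and H2-Eb2, and 2 lower, H2-DMb1 (265 against 601 CPM) and H2-Ob (39.2 against 101.2 CPM). Over all genes 8.78%, 4.47%, 3.54%, 7.23%, 4.46% and 11.4% were higher in clusters 0 to 5. In the same order 7.53%, 8.94%, 8.84%, 7.69%, 9.56% and 10.7% were lower. Counts of 1 or 2 in a list this short cannot be told apart from these shares. H2-Oa differed in order from the rest of the pathway, from 110 CPM in cluster 4 to 441 CPM in cluster 5.

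Cluster 6 held epithelial RNA and the reporter together with dendritic cell genes, in parts that differed from cell to cell. Its 7 cells, 6 of them from the AT2-Tracer library, were led by Wfdc2, Ccn1, Igfbp7, Bcam, Ager, Clu, ZsGFP and Aqp5. These genes were not shared evenly. The 1 Club-Tracer cell held 414 of the 576 Wfdc2 and 54 of the 67 Clu UMIs, and no Ccn1 or Aqp5. In that cell Scgb1a1 stood at 41307 CPM and the cDC1 list at 132 CPM, and Xcr1 had no UMI. Ager, the receptor that marks alveolar type 1 cells, was found in all 7 cells, at 65.9 to 6011 CPM per cell with a median of 412 CPM. Summed over the cluster it was at 2199 CPM, carried mostly by cells at 6011 and 5266 CPM, and at most 36.3 CPM in any other cluster. Of the 518 ZsGFP UMIs in members 447 were in cluster 6. The 7 AT1 markers summed to 3982 CPM there, with a median cell at 700 CPM and the same pair of cells at 12751 and 7939 CPM. They summed to 33.5 to 136 CPM in the other clusters. The cDC1 list stood at 364 and 439 CPM in that pair, against a median of 2172 CPM in the cluster. Xcr1 was found in 4 of the 7 cells and Naaa in all 7, and 5 passed the cDC1 gate. Median depth was 16469 UMIs, the highest of the clusters, and the doublet caller marked 2 of the 7 cells. Of 3946 genes 1198 (30.4%) were 2-fold higher and 314 (7.96%) lower than in the other members. The median gene was higher by 0.43 on the log2 scale, and after division by the median ratio the counts were 818 and 678. Whether such a droplet held 1 cell or more was not tested.

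**Figure D4:**
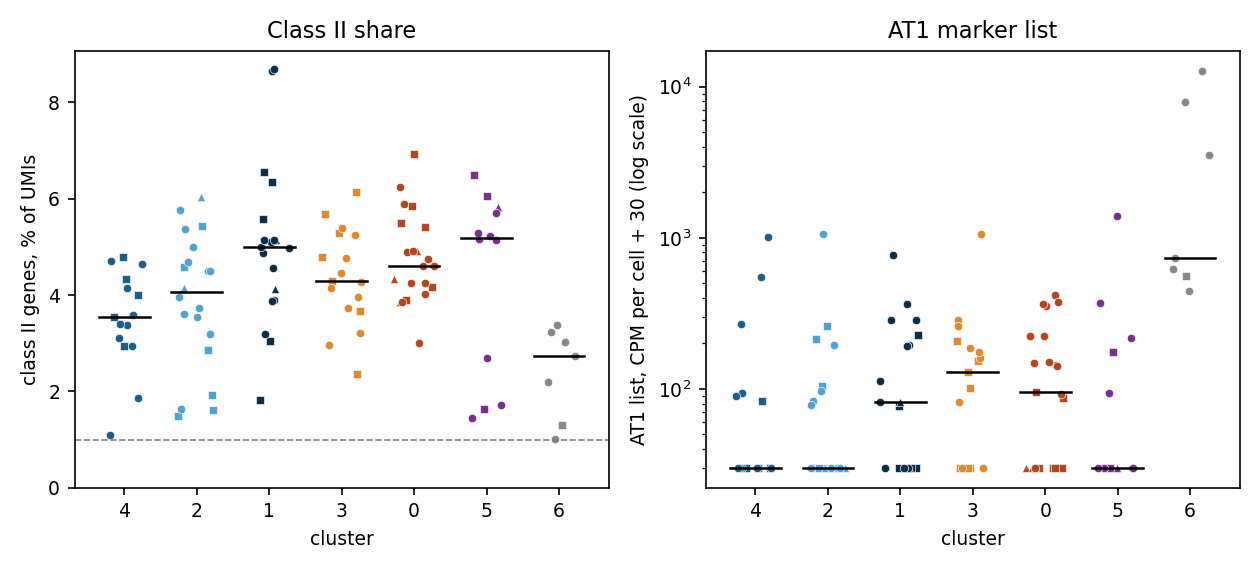
Share of UMIs from H2-Aa, H2-Ab1 and H2-Eb1 (left, with the 1% threshold of the rule dashed) and summed CPM of the AT1 list plus 30 on a log scale (right) in each cell, by cluster, with library shown by marker shape (square Club-Tracer, triangle BASC-Tracer, circle AT2-Tracer) and a bar at each cluster's median. Cluster 6 has the lowest median on the left, 2.74%, and the highest on the right.

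Both main libraries held every cluster. Club-Tracer members fell 6, 5, 6, 7, 5, 3 and 1 into clusters 0 to 6, and AT2-Tracer members 12, 12, 12, 10, 10, 8 and 6. The 8 BASC-Tracer members fell 3, 2, 2 and 1 into clusters 0, 1, 2 and 5. With 0 of 8 cells in clusters 3, 4 and 6, a share of up to 37.5% is allowed in each.

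Between AT2-Tracer and Club-Tracer members few genes were 2-fold apart. Of 2812 genes 72 (2.56%) were higher and 54 (1.92%) lower in AT2-Tracer members, and without cluster 6 the sum of both was 80 in place of 126. The genes at the ends were mostly epithelial genes and the reporter. Scgb1a1, the club cell secretoglobin, stood at 3011 CPM in Club-Tracer, 470 in BASC-Tracer and 21.3 in AT2-Tracer members. ZsGFP stood at 2.37, 8.55 and 646 CPM and Ager at 9.49, 0 and 349 CPM in the same order. Without cluster 6 Scgb1a1 was at 1580 CPM in Club-Tracer members, and ZsGFP at 100.5 and Ager at 30.2 CPM in AT2-Tracer members. Most of that remaining ZsGFP lay in cluster 3, at 456 CPM in its AT2-Tracer cells, and mainly in 1 cell. That cell, of 3905 UMIs, held ZsGFP at 9987 CPM. Igfbp7 was at 230 CPM in AT2-Tracer members, 10.1 CPM without cluster 6, and 4.74 CPM in Club-Tracer members. Cbr2 and Ly6a were at 610 and 472 CPM in Club-Tracer members and at 8.76 and 7.51 CPM in AT2-Tracer members. Without the 1 Club-Tracer cell of cluster 6, Cbr2 and Ly6a were at 160.0 and 76.3 CPM in Club-Tracer members. Apoe was at 294 CPM in AT2-Tracer and 9.49 CPM in Club-Tracer members, mostly in the 1 cell of cluster 0 described above. No gene of the class II, class I, chemokine, NF-kB or lysosome lists was 2-fold apart. Of 8 maturation genes at 50 CPM or more 2 were higher in AT2-Tracer members, Fscn1 (56.3 against 4.74 CPM) and Anxa3 (78.9 against 23.7 CPM). Of the AT2-Tracer Fscn1 UMIs 38 came from 1 cell of cluster 5, and 5 and 2 from the others with it. The Fscn1 difference is therefore mainly that of 1 cell. Cd274 (65.1 against 11.9 CPM) was higher among the co-stimulation and regulatory genes, and Areg, the growth factor amphiregulin (123 against 4.74 CPM, in 9 cells), among 6 cytokines. No cluster held 10 cells of the Club-Tracer library (at most 7), so the libraries were not compared within a cluster. The sort gate and the library cannot be told apart.

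In the AT2-Tracer library the share of members with the reporter was near that of macrophages. ZsGFP was found in 26 of 70 AT2-Tracer members (37.1%) at a median of 12042 UMIs, in 291 of 832 C1q macrophages (35%) at 7207.5 UMIs and in 288 of 869 alveolar macrophages (33.1%) at 9721 UMIs. Thinned to 1500 UMIs, these shares were 15.2%, 14.3% and 10.0%, and 98.4% of AT2 cells held it. Without cluster 6 the AT2-Tracer share was 31.2%. Only 1 of 33 Club-Tracer and 1 of 8 BASC-Tracer members held ZsGFP. In the BASC-Tracer library 27 of 88 C1q macrophages (30.7%) and 5 of 8 alveolar macrophages (62.5%) did, at medians of 10789 and 18405.5 UMIs against 8512 in members. The tdTomato transcript had 4 UMIs in all members: 3 of 33 Club-Tracer members and 1 of 70 AT2-Tracer members held it, and 0 of 8 BASC-Tracer members did, against 402 of 413 AT2 cells of the Club-Tracer library at a median of 24521 UMIs. Scgb1a1 was found in all 33 Club-Tracer and all 8 BASC-Tracer members, and also in all 5 alveolar and 3 C1q macrophages of the Club-Tracer library and all 88 C1q macrophages of the BASC-Tracer library. Thinned, it was left in 37.5% of BASC-Tracer members and 70.9% of those 88 macrophages. Whether these UMIs are background or RNA of the members themselves was not tested.

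Against macrophages of the AT2-Tracer library, the members were higher in antigen presentation genes and lower in lysosomal proteases. C1q macrophages were cells with 10 or more C1qa plus C1qb UMIs, and alveolar macrophages had Chil3 at 1% or more of UMIs. Of 3193 genes 339 (10.6%) were higher and 541 (16.9%) lower in members than in C1q macrophages. Against alveolar macrophages 524 of 3280 genes (16%) were higher and 671 (20.5%) lower, and the median gene was lower by 0.11 on the log2 scale. Of 13 class II pathway genes 11 were higher and 2 lower in both comparisons, a direction the rule sets for the 3 chains. The macrophages were chosen without a class II condition. Class II genes are switched on together, so the direction of other genes of this pathway is not independent of the rule. Their values are given as a description only. Cd74, not itself in the rule, was at 38666 CPM in members, 7233 in C1q and 930 in alveolar macrophages. H2-Oa was at 212 CPM in members and 3.45 CPM in C1q macrophages, and was found in 11 of 869 alveolar macrophages. In the same order as Cd74, H2-DMa was at 1026, 175 and 145 CPM and Ciita at 81.4, 8.36 and 1.96 CPM. The 2 lower genes were the proteases Ctss, at 1013, 4024 and 3596 CPM, and Lgmn, at 73.8, 1488 and 369 CPM.

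**Figure D5:**
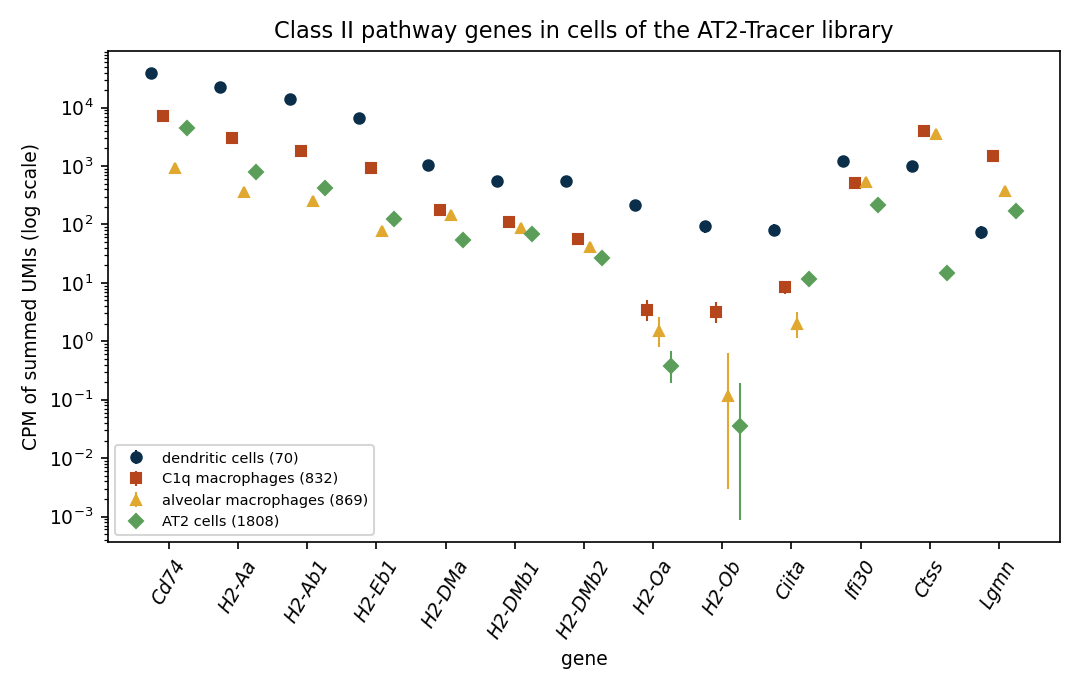
CPM of summed UMIs (log scale) of 13 class II pathway genes in 70 dendritic cells, 832 C1q macrophages, 869 alveolar macrophages and 1808 AT2 cells of the AT2-Tracer library, with exact Poisson 95% intervals. The dendritic cells are highest for the genes from Cd74 to Ifi30, and the macrophages for Ctss and Lgmn.

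Lysosomal proteases were lower in members than in both kinds of macrophage. Of 12 lysosome and protease genes 8 were lower in members than in C1q macrophages and 2 higher, and 7 were lower and 2 higher against alveolar macrophages. Ctsd, cathepsin D, was at 50.1 CPM in members, 3884 in C1q and 5015 in alveolar macrophages. Ctsb was at 279, 3713 and 1198 CPM. The 2 higher genes were Cst3 (21701, 4793 and 1504 CPM) and Plbd1, a gene of the rule, at 703 CPM in members and 48.0 CPM in C1q macrophages and found in 8 alveolar macrophages. Itgae, the CD103 integrin that binds E-cadherin on epithelium, was at 378 CPM in members and 3.85 in C1q macrophages. It had no UMI in alveolar macrophages, where the level was at least 1095-fold lower, computed against 3 counts over the group. Il1r2, a decoy receptor for interleukin 1, was at 600, 23.6 and 1.04 CPM. Cldn1, a tight junction protein, was at 409, 2.79 and 2.07 CPM, while Il1b was within 2-fold at 1422, 1948 and 2010 CPM. Cxcl2 was lower in members, at 633 CPM against 8713 and 5713 CPM, and Cd86 was higher, at 298 against 163 and 35.9 CPM, of which the difference from C1q macrophages was under 2-fold.

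Interferon response genes were scarce in the members. Of the 11 listed genes that were measured, none was at 50 CPM or more over all members, and they summed to 138 CPM. Cluster 6 was highest at 594 CPM and cluster 0 next at 245 CPM, with Cxcl10 at 92.5 CPM in 5 cells of cluster 0. Immediate-early genes, which digestion of tissue can switch on, were present throughout: Fos at 762 CPM in 99 members, Junb at 1276 CPM in 106 and Atf3 at 615 CPM in 89. Atf3 was highest in cluster 0, at 1055 CPM, as was Dusp1, at 1365 CPM. Il1b and Cxcl2 were highest in that cluster as well, and the part of digestion in those values was not tested.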

How the data were processed

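The deposited matrices hold UMI counts per gene and barcode, not normalized, which the authors made with Cell Ranger 6.1.1 on mm10 per the submitters' processing notes. The matrices hold 62570890 (Club-Tracer), 29013077 (BASC-Tracer) and 72256580 (AT2-Tracer) UMIs, and their members 421504, 116957 and 798943. The members and gene lists were chosen with earlier results of these data known, and cluster names follow a rule written once the clusters were known. Summed UMIs were scaled to CPM with exact Poisson intervals, shares got exact Clopper-Pearson intervals, both at 95%, and a count of 0 was read as up to 3 counts. A gene was 2-fold apart on log2((CPM + 5)/(CPM + 5)) if at 50 CPM or more in either group. This is a size and no test, and it understates low genes.

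Members of all libraries were clustered together (counts scaled to 10000, log, 15 components, 10 neighbours, resolution 1, seed 0) with scanpy 1.11.5 in Python 3.11.15. Leading genes are the 10 with the highest log2 ratio among genes with 50 CPM, 30 UMIs and a UMI in 25% of the cells. Between libraries or cell classes 5 genes at each end were picked alike. From the function lists any member could be named. Scrublet scored doublets, with 0.8% expected for each 1000 barcodes, and these were kept, since the automatic threshold marked 1 Club-Tracer barcode and none in BASC-Tracer. AT2 cells had Sftpc at 3% of UMIs or more and no Ptprc. The listed genes Clec7a and Mx1 were not analysed here. The ratio and interval code was tested on simulated counts.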

Additional observations from a re-analysis of the deposited data

Results flagged for a closer look

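Of 1643 barcodes with fewer than 500 genes that passed the mitochondrial limit, 11 met every other part of the rule, 5 in the Club-Tracer, 1 in the BASC-Tracer and 5 in the AT2-Tracer library. They are a signal outside the cells analysed and were not added to the members.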

How the results depend on the processing

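The share of members per library stayed within its interval under all 12 other settings, from 0.845% to 1.10% in Club-Tracer, 0.499% to 0.608% in BASC-Tracer and 1.06% to 1.31% in AT2-Tracer. The number of clusters was 2 at resolution 0.5 and 3 without the AT2-Tracer library. The cluster highest in the maturation list held 45.9% of members at resolution 0.5, 29.7% with 20 neighbours, 30.1% without the BASC-Tracer library and 26.2% without Scrublet doublets, where cluster 5 shared a cluster with cells of cluster 0. It held 22.0% without the AT2-Tracer library, where that cluster matched cluster 1 and the 4 cells left of cluster 5 fell with clusters 0 and 3. With another seed the value was 10.8% again, but of cells of cluster 1, with cluster 5 joined to cluster 0. Thinned to 1500 UMIs, 29.2% passed the cDC1, 25.5% the cDC2 and 3.77% the maturation gate, and with 1 more gene needed 46.8% passed the cDC1 and 6.31% the maturation gate. After thinning no Club-Tracer (0%) and no BASC-Tracer member (0%) held ZsGFP, and 15.2% of the AT2-Tracer ones did, and the tdTomato transcript in 0% of AT2-Tracer members. Without cluster 6 ZsGFP was at 0% of Club-Tracer and the tdTomato transcript at 0% of AT2-Tracer members.

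Counts of genes 2-fold apart depend on the CPM minimum by its construction. With 20 CPM in place of 50 they were 1112, 992, 881, 1166, 1052, 1537 and 2784 for clusters 0 to 6 against the other members, 1373 for cluster 0 against 3 and 1289 for cluster 1 against 4. They were 466 between AT2-Tracer and Club-Tracer members, 1423 against C1q and 1889 against alveolar macrophages. With 100 CPM the same counts in the same order were 242, 165, 153, 186, 164, 289, 644, 206, 250, 40, 549 and 732. With a pseudocount of 20 they were 278, 274 and 432 for clusters 3, 4 and 5, 345 for cluster 0 against 3, 394 for 1 against 4 and 72 between the libraries. Without the AT2-Tracer library, which leaves fewer cells, they were 812, 754, 602, 958, 847, 1469 and 4301 for clusters 0 to 6, 1220 and 1189 for the pairs. Without the Club-Tracer library they were 768 for cluster 3 and 958 for cluster 0 against 3, and without cluster 6 the library count was 80. The cause of these shifts was not tested. Of all 174 comparisons with other settings 114 stayed within these bounds and 60 moved. No paired analysis was possible because each group is 1 library.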
